A study of Arabidopsis thaliana with 6 samples.

Results

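The genes described here are the B-type methionine sulfoxide reductases of Arabidopsis, named MSRB1 to MSRB9, and the members were those to which the array annotation assigns a probe set of a single gene. This rule gave 4 of the 9 genes, MSRB3, MSRB5, MSRB6 and MSRB9, with 1 probe set each, out of 13355 genes with such a probe set. The plastid forms MSRB1 and MSRB2, and also MSRB4, MSRB7 and MSRB8, had no probe set assigned and were not analysed here, so the plastid and cytosolic forms could not be set against each other. The family was chosen by the difference of MSRB9 between the groups in these same arrays. The differences of the members are therefore given as a description, with no test.

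Transcript levels came from 6 Affymetrix arrays of the aerial part of Arabidopsis plants aged 4 weeks, 3 from msh1 mutants with albino tissue and 3 from wild-type plants. MSH1 codes for a MutS homolog of mitochondria and plastids that limits recombination of the organelle genomes. Both groups grew on MS medium with 1.5% sucrose under 12 h of light and 12 h of darkness at 24 °C. RNA was extracted from individual plants, and the labels call the arrays of a group biological replicates. Neither the allele of msh1 nor the ecotype is given in the sources used here. Every mutant array came from albino tissue, so mutation and albinism cannot be told apart in this design. MSH1 had no probe set assigned, so the mutated gene gave no check of the labels. P-values measure the spread between these samples.

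Methionine in proteins is oxidised by reactive oxygen species to methionine sulfoxide, which has S and R forms at the sulfur atom. A-type reductases act on the S form and B-type reductases on the R form, and the oxidised enzyme is then regenerated by thioredoxins or glutaredoxins. In Arabidopsis MSRB1 and MSRB2 are plastid enzymes, MSRB3 is found in the endoplasmic reticulum, and the other members are placed in the cytosol. Some cytosolic members are known for induction by oxidative stress.

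Across the members, the msh1 albino arrays lay far above the wild-type arrays for MSRB9 and clearly above them for MSRB5, while for MSRB3 and MSRB6 the groups overlapped. Values are log2 RMA values, on which a step of 1 is a 2-fold difference. They compare 1 probe set between arrays and not the levels of different genes. A difference is msh1 albino minus wild type, with the standard error (SE) and 95% interval of a limma model fitted to all probe sets. In whole aerial tissue, a change in the share of a cell type and a change of RNA per cell cannot be told apart.

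MSRB3, the reductase of the endoplasmic reticulum, had values of 7.14, 7.59 and 7.02 in msh1 albino replicates 1 to 3, against 7.04, 7.00 and 6.82 in wild-type replicates 1 to 3. The groups overlapped, because msh1 albino replicate 3 lay just under wild-type replicate 1, and msh1 albino replicate 2 stood above all other arrays. The means were 7.25 ± 0.30 in msh1 albino and 6.95 ± 0.12 in wild type (SD, n = 3 each), a difference of 0.30 ± 0.16 (SE) with an interval from -0.07 to 0.66. Without msh1 albino replicate 2 the difference was 0.13.

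MSRB5, a cytosolic member, had values of 9.36, 9.05 and 9.10 in msh1 albino replicates 1 to 3, against 8.44, 8.17 and 7.99 in wild-type replicates 1 to 3. Every msh1 albino array lay above every wild-type array. The means were 9.17 ± 0.17 in msh1 albino and 8.20 ± 0.23 in wild type (SD, n = 3 each). The difference was 0.97 ± 0.14 (SE), with an interval from 0.64 to 1.30, which is 1.96-fold higher.

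MSRB6, a cytosolic member encoded next to MSRB5, had values of 6.08, 5.46 and 5.55 in msh1 albino replicates 1 to 3, against 6.05, 5.95 and 5.63 in wild-type replicates 1 to 3. The groups overlapped fully, with the highest and the lowest value both in msh1 albino arrays. The means were 5.70 ± 0.34 in msh1 albino and 5.88 ± 0.22 in wild type (SD, n = 3 each), a difference of -0.18 ± 0.19 (SE) with an interval from -0.62 to 0.25. This is the member whose sign depended on the setting. Alignment of the arrays on UBC21, a ubiquitin-conjugating enzyme often used as a reference gene, gave 0.06, and array weights gave 0.0016. The other scalings left the difference below 0. Without msh1 albino replicate 1 the difference was -0.38, and without replicate 2 of that group it was -0.06.

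MSRB9, a cytosolic member, had values of 7.34, 7.64 and 6.68 in msh1 albino replicates 1 to 3, against 4.56, 4.39 and 4.81 in wild-type replicates 1 to 3. The lowest msh1 albino array, replicate 3, still lay well above the highest wild-type array. The means were 7.22 ± 0.49 in msh1 albino and 4.59 ± 0.21 in wild type (SD, n = 3 each). The difference was 2.63 ± 0.24 (SE), with an interval from 2.08 to 3.18, which is 6.19-fold higher. It stood at rank 10 from the top among 13513 single-gene probe sets. Background was not measured, so the fold is a lower bound if the wild-type level of 4.59 is background.

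**Figure D1:**
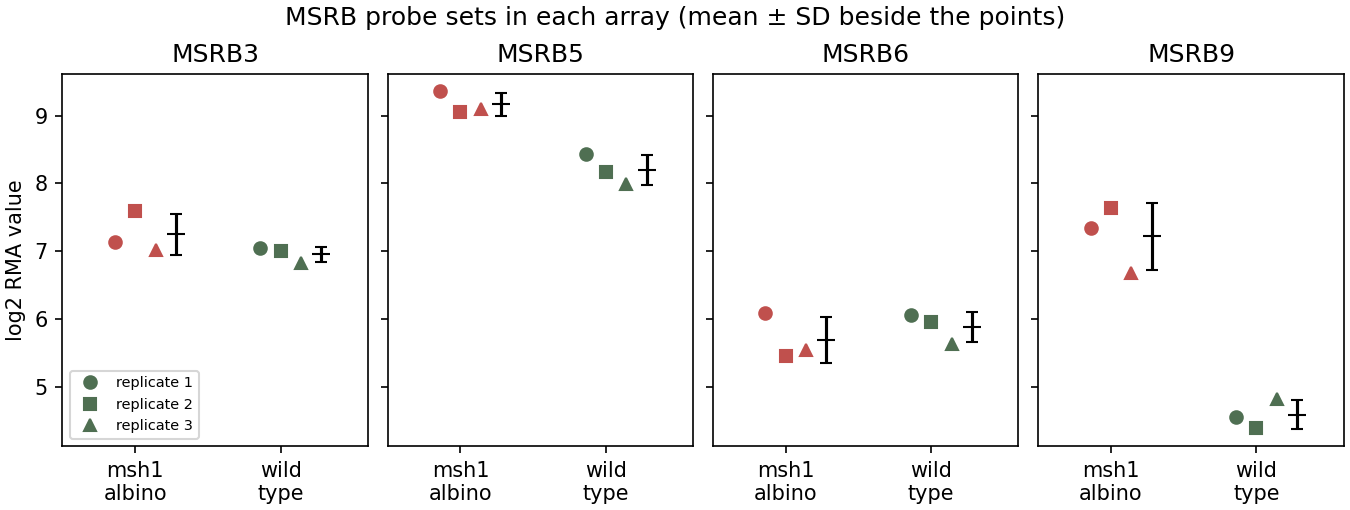
Log2 RMA value of each MSRB probe set in every array, with msh1 albino (red) left of wild type (green), a symbol per replicate number, and bars for mean ± SD of 3 arrays. The msh1 albino arrays of MSRB9 (6.68 to 7.64) and MSRB5 (9.05 to 9.36) lie above all wild-type arrays, whereas those of MSRB3 and MSRB6 overlap with wild type.

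In 2 of the 4 members, MSRB5 and MSRB9, the arrays of the groups did not overlap, both with msh1 albino higher. Over all probe sets the groups did not overlap in 29.9%, with msh1 albino higher in 10.1% and lower in 19.8%. A difference of at least 1 on the log2 scale was reached by MSRB9 alone among the members, and 1.95% of all probe sets were higher by that much. MSRB5, at 0.97, lay just under it. The mean was higher in msh1 albino for 3 of the 4 members, and for 41.6% of all probe sets. The members' differences exceeded those of 99.9% of probe sets for MSRB9, 97.9% for MSRB5, 90.3% for MSRB3 and 27.0% for MSRB6. Nothing is read from these shares, since MSRB9 was chosen for its difference.

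The replicates of the members also varied in different ways. MSRB3 and MSRB9 both had their highest msh1 albino value in replicate 2 and their lowest in replicate 3. Their wild-type arrays differed in order, since replicate 3 was the lowest for MSRB3 and the highest for MSRB9. MSRB5 and MSRB6 both had their highest msh1 albino value in replicate 1 and their lowest in replicate 2, and both also had their highest wild-type value in replicate 1 and their lowest in replicate 3. The SD among msh1 albino arrays was larger than that of 97.0% of probe sets for MSRB9, 91.6% for MSRB6, 88.3% for MSRB3 and 62.5% for MSRB5. Within arrays the change of MSRB9 exceeded that of MSRB5 by 1.66, with an SD of that log2 gap of 0.51 among msh1 albino and 0.38 among wild-type arrays (n = 3 each). The change of MSRB6 was 1.15 below that of MSRB5, with SDs of 0.17 in msh1 albino and 0.09 in wild type (n = 3 each).

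MSRB genes lie mostly in runs of adjacent copies on chromosome 4 of the TAIR10.1 assembly, which was used here for names and neighbours only because the build behind the array values is not given. The first run holds MSRB3 (AT4G04800), MSRB4 (AT4G04810), MSRB5 (AT4G04830) and MSRB6 (AT4G04840). The other holds MSRB7 (AT4G21830), MSRB8 (AT4G21840), MSRB9 (AT4G21850) and MSRB2 (AT4G21860). MSRB1 (AT1G53670) stands alone on chromosome 1. The copies of the first run thus had unlike differences, from -0.18 for MSRB6 through 0.30 for MSRB3 to 0.97 for MSRB5. Between MSRB4 and MSRB5 lies the pseudogene AT4G04820, whose probe set, of a type that shares sequence with other transcripts by its name, gave 4.17 ± 0.16 in msh1 albino and 4.12 ± 0.04 in wild type (SD, n = 3 each).

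Neighbouring genes were tested, as they played no part in the choice of members. The list took the 5 nearest protein-coding genes on each side of MSRB1 and of both runs, and any gene inside a run. Of these 32 genes 18 were measured. By limma with Benjamini-Hochberg adjustment over all probe sets and a threshold of 0.05, 1 rose and 0 fell, 2 had an unadjusted p under 0.05, and the median difference was -0.04. Over all probe sets 11.2% passed this test, 3.75% higher and 7.44% lower, and the median was also -0.04. The gene that rose was AT1G53645, near MSRB1, with 8.51 ± 0.12 in msh1 albino and 8.11 ± 0.07 in wild type (SD, n = 3 each), a difference of 0.40 ± 0.10 (SE, limma adjusted p = 0.0416). That call was lost without msh1 albino replicate 1 (0.124) or 2 (0.0809) and without wild-type replicate 1 (0.0944), 2 (0.146) or 3 (0.0801), by limma adjusted p. It was also lost with the replicate block (0.114) and with a robust prior that follows intensity (0.0524).

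Around the MSRB7 to MSRB2 run, the measured neighbours had differences from -0.26 for DER2.1 to 0.17 for QQT2, and none passed. The closest measured genes on either side were AT4G21820, at -0.05 ± 0.10 (SE), and AT4G21865, at 0.13 ± 0.11 (SE). Around the MSRB3 to MSRB6 run the measured neighbours ran from -0.25 for DER2.2 to 0.06 for AT4G04760, and none passed. DER2.1 and DER2.2 are both Derlin genes, a family that acts in the removal of misfolded proteins from the endoplasmic reticulum, and 1 of them flanks each run. DER2.1 had 9.08 ± 0.07 in msh1 albino and 9.33 ± 0.10 in wild type, and DER2.2 had 7.36 ± 0.14 in msh1 albino and 7.61 ± 0.10 in wild type (SD, n = 3 each).

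**Figure D2:**
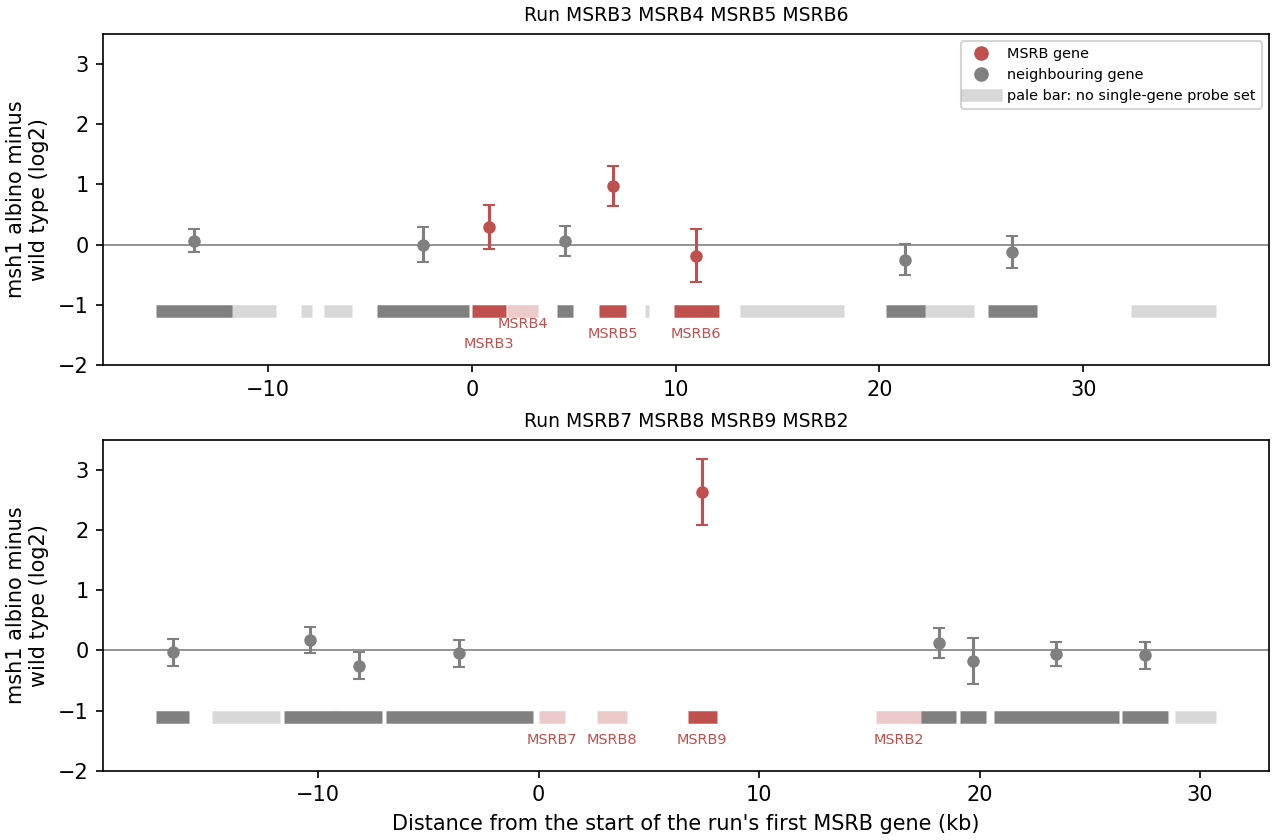
Difference of msh1 albino minus wild type (log2, points with 95% intervals) along both runs of MSRB genes, against distance in kb from the start of the first MSRB gene of the run. Red marks MSRB genes, grey marks neighbouring genes and pale bars mark genes without a single-gene probe set; MSRB9 at 2.63 and MSRB5 at 0.97 stand above neighbours that lie between -0.26 and 0.17.

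Thiol systems were described through lists of plastid thioredoxins, other thioredoxins, thioredoxin reductases, glutaredoxins and peroxiredoxins. These lists, like the sulfur and stress lists below, were chosen with earlier results of the same arrays known. Nothing is read from their counts, and their p-values are given as a description. The plastid thioredoxins lie in a compartment other than those given for the measured members. Of the cytosolic and mitochondrial thioredoxins none was measured by name. Of 4 plastid thioredoxins measured by name 1 fell, none rose and 3 did not pass, with a median difference of -0.27. Over all probe sets 7.44% were lower and 3.75% higher, with a median of -0.04. THX of that list, kept only by locus, also fell and is described with the other genes kept that way. The gene that fell by name was TRXF2, an f-type thioredoxin that carries light signals to enzymes of the chloroplast. TRXF2 had 8.32, 8.30 and 8.13 in msh1 albino replicates 1 to 3, against 8.85, 8.69 and 8.73 in wild-type replicates 1 to 3. The groups did not overlap, and the difference was -0.51 ± 0.10 (SE, limma adjusted p = 0.0181). The call was lost without wild-type replicate 1 (limma adjusted p = 0.0526), replicate 2 (0.0581) or replicate 3 (0.0557) and with alignment on UBC21 (-0.26, 0.352). With the replicate number as a block it was lost too (adjusted p = 0.0528).

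Sulfiredoxin, SRX, which repairs overoxidised peroxiredoxins, fell. It had 9.26, 9.40 and 8.99 in msh1 albino replicates 1 to 3, against 10.11, 9.78 and 9.85 in wild-type replicates 1 to 3. All msh1 albino arrays lay below all wild-type arrays, and the difference was -0.70 ± 0.14 (SE, limma adjusted p = 0.0200). Leaving out msh1 albino replicate 1 (0.0503) or wild-type replicate 1 (0.0536), 2 (0.0559) or 3 (0.0570), and alignment on UBC21 (-0.45, 0.110), ended that call by limma adjusted p. PRXIIF, a mitochondrial peroxiredoxin and the other gene of that list measured under its listed name, had a difference of 0.12 ± 0.13 (SE). AT3G11630 and AT3G52960, also in that list but kept only by locus, had differences of -0.12 ± 0.12 and 0.09 ± 0.12 (SE), and neither passed.

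NTRC, a plastid NADPH thioredoxin reductase and the only gene of its list measured under its listed name, had 8.75 ± 0.08 in msh1 albino and 9.06 ± 0.05 in wild type (SD, n = 3 each) and did not pass (limma adjusted p = 0.0687). AT2G04700 of the same list, kept only by locus, did pass and is described with the other genes kept that way. None of the 3 glutaredoxins measured under their listed names passed by limma, and 1 had an unadjusted p under 0.05. Among them GRX480 had a difference of 0.30 ± 0.12 (SE) and GRXC2 one of 0.15 ± 0.22 (SE). AT2G20270 of that list, kept only by locus, had a difference of -0.40 ± 0.14 (SE). Its msh1 albino arrays all lay below its wild-type arrays, but it did not pass (limma adjusted p = 0.125). The lists of A-type reductases, cytosolic and mitochondrial thioredoxins, glutathione peroxidases and folding in the endoplasmic reticulum gave no measured gene by the names listed. MSRA5, an A-type reductase listed under another name and therefore added after its probe set was seen, had 8.07 ± 0.02 in msh1 albino and 8.26 ± 0.08 in wild type (SD, n = 3 each), a difference of -0.19 ± 0.09 (SE) that did not pass (limma adjusted p = 0.221).

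Across the glutathione and ascorbate cycle 0 of 4 measured genes passed by limma, and 1 had an unadjusted p under 0.05. That was TAPX, the thylakoid ascorbate peroxidase, with 8.54 ± 0.19 in msh1 albino and 8.96 ± 0.06 in wild type (SD, n = 3 each) and a limma adjusted p of 0.0543. It passed without msh1 albino replicate 1 (limma adjusted p = 0.0494) and among probe sets above the 50th percentile of the mean (0.0463). SAPX, the stromal form, had a difference of 0.23 ± 0.15 (SE). Of superoxide dismutases and catalases only CCS was measured, a copper chaperone of superoxide dismutase, at 0.44 ± 0.25 (SE). It did not pass, except with alignment on UBC21 (0.68, limma adjusted p = 0.0361). In the list for methionine synthesis and the S-adenosylmethionine cycle 1 of 4 measured genes rose and none fell (median 0.06). Over all probe sets 3.75% rose and 7.44% fell. In that list 2 genes had an unadjusted p under 0.05. CBL, which did not pass (limma adjusted p = 0.0785), had a difference of -0.37 ± 0.11 (SE), with all msh1 albino arrays below all wild-type arrays. With array weights 1 gene of the list was called lower.

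The gene that rose there was HMT-1, a homocysteine methyltransferase, which makes methionine. It had 6.34, 7.17 and 6.53 in msh1 albino replicates 1 to 3, against 5.77, 5.93 and 5.72 in wild-type replicates 1 to 3, with no overlap. The difference was 0.88 ± 0.20 (SE, limma adjusted p = 0.0324). Its call was lost without msh1 albino replicate 3 (0.0581) or wild-type replicate 1 (0.0815), 2 (0.0868) or 3 (0.102), by limma adjusted p. SIR, sulfite reductase and the only measured gene of sulfate assimilation, had a difference of 0.18 ± 0.11 (SE) and did not pass.

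Stress response lists were thinly measured, with 2 of 11 oxidative stress genes and 1 of 10 defence genes, and these 3 all rose, beside 3.75% of all probe sets. Like the thiol and sulfur lists, these were chosen with earlier results of the same arrays known, so nothing is read from that share. The p-values of the 3 genes are likewise given as a description. GSTU25, a tau class glutathione transferase, had 6.21, 6.50 and 5.02 in msh1 albino replicates 1 to 3, against 4.30, 4.08 and 4.09 in wild-type replicates 1 to 3. The groups did not overlap and msh1 albino replicate 3 was the lowest of its group, as it was for MSRB9. The difference of GSTU25 was 1.75 ± 0.34 (SE, limma adjusted p = 0.0180), and the call was lost without msh1 albino replicate 1 (0.0544) or wild-type replicate 2 (0.0753) or 3 (0.0635). As for MSRB9, this is a lower bound if the wild-type level, 4.16 on average, is background. STZ, a zinc finger transcription factor of stress responses, had 7.42, 9.55 and 7.88 in msh1 albino replicates 1 to 3, against 6.74, 5.89 and 6.09 in wild-type replicates 1 to 3.

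For STZ the difference was 2.05 ± 0.51 (SE, limma adjusted p = 0.0408), with msh1 albino replicate 2 far above the others. It was lost without any one of msh1 albino replicate 3 (0.0679) and wild-type replicates 1 (0.0584), 2 (0.149) and 3 (0.119), with the replicate block (0.0728) and with a robust prior that follows intensity (0.104), all as limma adjusted p. PDF1.2, a plant defensin, had 6.63 ± 0.14 in msh1 albino and 5.63 ± 0.45 in wild type (SD, n = 3 each), a difference of 1.00 ± 0.21 (SE, limma adjusted p = 0.0243). Its call was lost without msh1 albino replicate 2 (0.0510) or 3 (0.0718) or wild-type replicate 1 (0.0676) or 2 (0.0970). Over all these lists, 23 genes were measured by name, of which 4 rose and 2 fell, with a median difference of 0.12. The rises include GSTU25, STZ and PDF1.2. All these lists were chosen with earlier results known, so nothing is read from the counts. Another 8 list genes, kept only by locus, are not among the 23. All of those except AT3G52960 (0.09) had differences below 0, and THX and AT2G04700 fell, as described below. No median was taken with them. Over all probe sets 3.75% rose and 7.44% fell, with a median of -0.04.

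**Figure D3:**
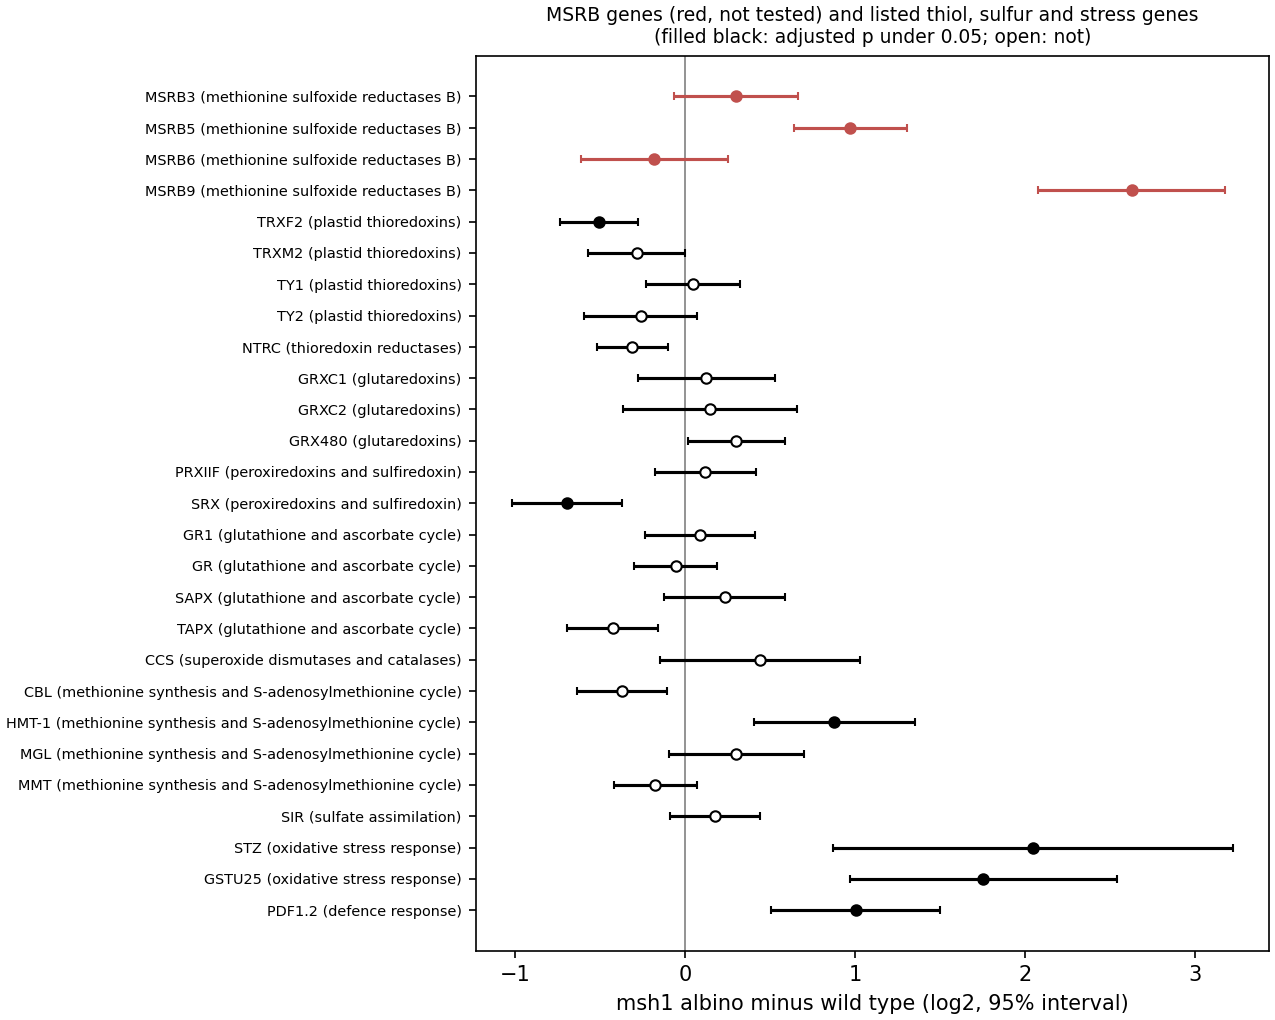
Difference of msh1 albino minus wild type (log2, with 95% intervals) of the MSRB genes in red, not tested, and in black of the 23 genes of the thiol, sulfur and stress lists measured by name. Filled black points passed a limma adjusted p of 0.05: TRXF2 (-0.51) and SRX (-0.70) lay below 0, and HMT-1 (0.88), STZ (2.05), GSTU25 (1.75) and PDF1.2 (1.00) above it. All these lists were chosen with earlier results of these arrays known.

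Some genes of these lists are named otherwise in the gene table and were kept by locus in an added reading. THX, a plastid thioredoxin of the x type, fell by 0.46 ± 0.09 (SE, limma adjusted p = 0.0216). AT2G04700, listed among the thioredoxin reductases, fell by 0.55 ± 0.12 (SE, limma adjusted p = 0.0260). TO2, an o-type thioredoxin, had a difference of -0.34 ± 0.13 (SE) and TO1 one of -0.08 ± 0.16 (SE), and neither passed. With these and 4 further genes, the called list genes and neighbours numbered 5 higher and 4 lower of 49, against 5 and 2 of 41 by name. Over all probe sets 3.75% were called higher and 7.44% lower. The 5 higher include STZ, GSTU25 and PDF1.2. Since the gene lists were chosen with earlier results known, nothing is read from these counts.

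Profiles most like those of the members were sought among single-gene probe sets whose range over the 6 arrays was at least 50% of the member's own. Likeness was Pearson's r of log2 values over 6 arrays, which share their groups and their normalization. A gene with a large gap between the groups, and higher in msh1 albino, therefore tends to score high against MSRB9 and MSRB5. For MSRB9, 118 of 369 such probe sets had r above 0.9. The 5 highest were UGT73B4 (r = 0.995), AT1G35710 (0.992), AT5G60250 (0.990), UGT73B5 (0.989) and rpoC2 (0.988). UGT73B4 and UGT73B5 are neighbouring glucosyltransferase genes, and rpoC2 is a gene of the plastid genome that codes for part of its RNA polymerase. Their differences were 2.39 ± 0.26 for UGT73B4, 1.70 ± 0.18 for UGT73B5 and 1.33 ± 0.13 for rpoC2 (SE), and msh1 albino replicate 3 was the lowest of its group in all 5 genes.

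For MSRB5, 111 of 2997 probe sets had r above 0.9, led by BHLH101 (r = 0.992), a transcription factor of iron deficiency responses, and CCR2 (0.989), a cinnamoyl-CoA reductase. AT2G38240 (0.987), AT1G57770 (0.979) and AT1G73600 (0.979) followed. Differences were 1.15 ± 0.16 for BHLH101, 0.58 ± 0.12 for CCR2 and 1.85 ± 0.21 for AT2G38240 (SE). For MSRB3, AT5G40660 (r = 0.999), AT1G22180 (0.993), AT4G39320 (0.991), AT5G56980 (0.990) and AT1G65240 (0.990) were the most similar of 7822 probe sets. For MSRB6, AT5G17340 (r = 0.986), AT1G02813 (0.971), the defensin-like LCR66 (0.969), AT1G30020 (0.962) and AT1G18060 (0.956) led among 9579, of which 28 had r above 0.9. No gene was among the 5 of more than one member.

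**Figure D4:**
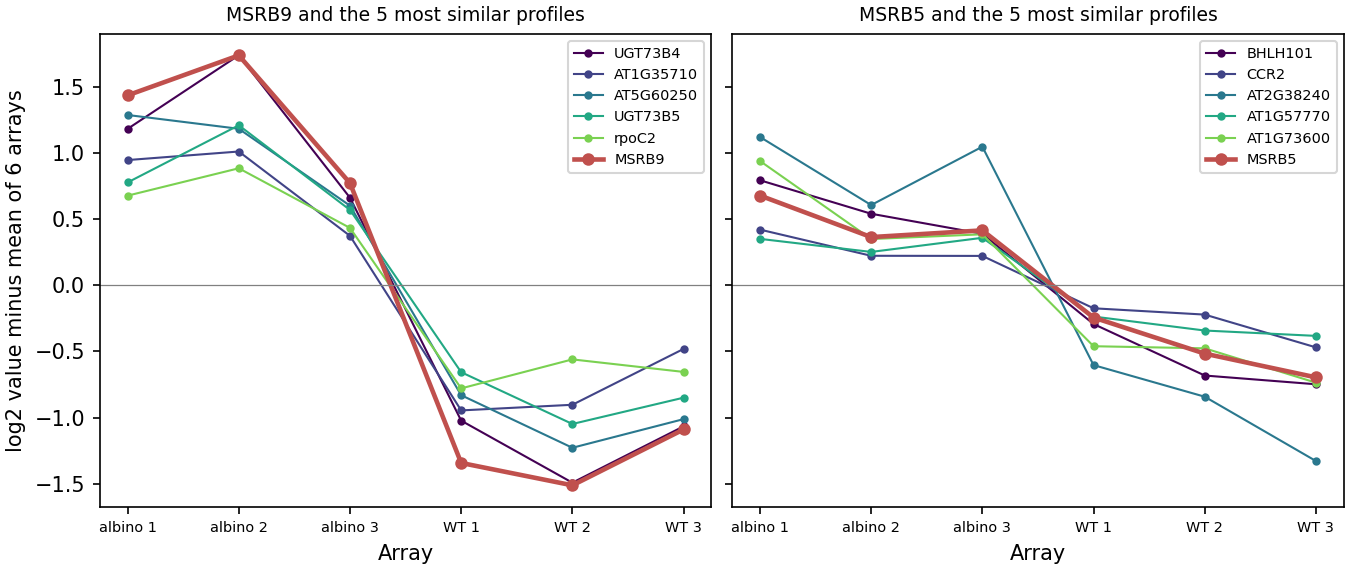
Log2 value minus the mean of 6 arrays for MSRB9 and MSRB5 (thick red) and the 5 genes with the highest Pearson's r to each, with msh1 albino arrays left of wild-type (WT) arrays. Lines only join the arrays of a gene. The genes like MSRB9 dip in msh1 albino replicate 3, and those like MSRB5 are lowest in wild-type replicate 3.

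Leaf markers were checked in the same arrays, since albino tissue differs in its plastids. Of 9 listed leaf genes 5 were measured, among them LHCB4.1 and PRK, and all 5 fell by limma, by 0.48 to 1.08 on the log2 scale, beside 7.44% of all probe sets. Like the other gene lists, the leaf markers were chosen with earlier results of these arrays known, so nothing is read from that share. With other scalings all 5 differences stayed below 0, but fewer passed: 4 after alignment on the 75th percentile or on 3 reference genes, 3 after cyclic loess, and 2 after alignment on UBC21 or a further quantile normalization. Without any one array 4 passed. Their mean log2 value ranged from 11.9 to 12.2 over msh1 albino arrays and from 12.8 to 12.9 over wild-type arrays. Of 7 root markers 2 were measured: EXPA7 had 4.18 ± 0.10 in msh1 albino and 4.19 ± 0.06 in wild type, and PYK10 had 9.25 ± 0.75 in msh1 albino and 7.86 ± 0.74 in wild type (SD, n = 3 each), which did not pass (limma adjusted p = 0.0911). The mean of both root markers ranged from 6.33 to 6.91 over msh1 albino and from 5.67 to 6.36 over wild-type arrays. None of the flower and seed markers was measured. The part of these markers in the values of MSRB5 and MSRB9 was not tested.

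**Figure D5:**
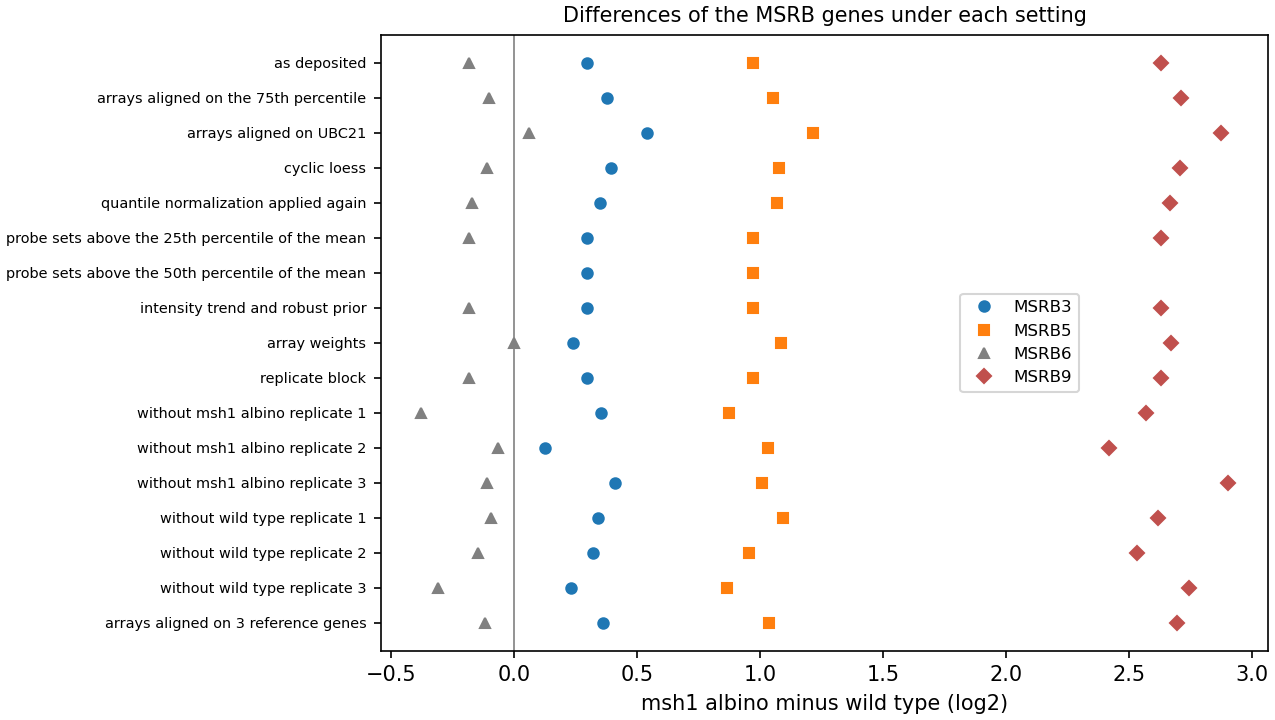
Difference of msh1 albino minus wild type (log2) of each MSRB gene as deposited and under each other setting. MSRB9 stays between 2.42 and 2.90, MSRB5 between 0.87 and 1.21 and MSRB3 between 0.13 and 0.54, while MSRB6 runs from -0.38 to 0.06; MSRB6 and MSRB9 have no point above the 50th percentile of the mean because that filter removes them.

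Over 16 other settings MSRB5 and MSRB3 were higher in msh1 albino in each. MSRB9 was higher in each of the 15 settings that retained its probe set. MSRB6 was lower in 13 of 15. The filters on low values, the other variance prior and the replicate block cannot change a difference. Those settings are in these counts but say nothing on the sign. Alignment on UBC21 added 0.24 to every difference, which gave 2.87 for MSRB9, 1.21 for MSRB5 and 0.54 for MSRB3, beside a median of 0.20 over all probe sets.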

How the data were processed

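Members and gene lists were chosen with earlier results of these data known. The deposited log2 values, 1 for each probe set on each array, were summarised by the authors with RMA from the affy package, per the submitters' processing notes. Neither software versions nor a build are given in these sources. They were used unchanged. After removal of 64 array controls, 22746 probe sets were fitted with lmFit and eBayes (limma 3.58.1, R 4.3.3, 2-sided, Benjamini-Hochberg over all probe sets, threshold 0.05). The fit was tested on simulated data. Precision is limited by the 3 arrays per group, with a median SE of 0.118.

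Names came from the annotation of the array and from the RefSeq TAIR10.1 gene table: 13513 probe sets had a single gene, 503 several and 8730 none here. Where a gene had several, the one with the highest mean was used. Listed genes whose listed name the table does not give for that locus were dropped (12 over all lists).

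The rule for named genes took all members, all measured neighbours, up to 4 called genes per list (otherwise the 2 with the largest difference) and the 5 most similar profiles per member. MSRA5, THX, AT2G04700, AT2G20270, AT3G11630, AT3G52960, TO1, TO2, PRXIIF and CBL were named after their values were seen. Markers were named outside the rule. Arrays with the same replicate number did not deviate together (correlations of 0.0096, -0.34 and -0.019), so the numbers were not taken as pairs. Alternatives were 4 scalings, 2 filters on low values, another variance prior, array weights, a replicate block, a threshold of 0.01, the mean of a gene's probe sets, and leaving out each array. Keeping listed genes by locus and aligning on 3 reference genes were chosen after seeing the data.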

Additional observations from a re-analysis of the deposited data

How the results depend on the processing

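As deposited, 854 probe sets were called higher and 1693 lower in msh1 albino, so 66.5% of calls were lower. That share was 45.7% after alignment on the 75th percentile (1301 higher, 1095 lower), 19.5% after alignment on UBC21, the one reference gene measured by name (1970 higher, 476 lower), 45.4% after cyclic loess (1260 higher, 1047 lower), 52.2% after a further quantile normalization and 50.9% after alignment on 3 reference genes. A threshold of 0.01 left 251 higher and 438 lower. Leaving out 1 array gave 298 to 749 higher and 553 to 1424 lower. The listed genes and neighbours, 5 higher and 2 lower as reported, had 0 lower with UBC21, 3 higher with the robust trended prior, 0 higher and 0 lower at 0.01, 3 lower above the 50th percentile or with array weights, 4 lower with genes kept by locus, and 0 to 3 higher and 0 to 2 lower without 1 array. The call of 1 neighbour ended (0 higher) with that prior and at 0.01, and ranged from 0 to 1 without 1 array. The replicate numbers did not pair the arrays; with the replicate block 564 were higher and 921 lower, the lists had 3 higher and 1 lower, and neighbours 0.

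Differences of MSRB9 ranged from 2.42 to 2.90 and those of MSRB5 from 0.87 to 1.09 without 1 array, and UBC21 gave 1.21 for MSRB5 and 0.54 for MSRB3. The filter at the 50th percentile left out MSRB6 and MSRB9, and each member had 1 probe set, so taking probe sets separately gave nothing further. The causes were not tested. Among the genes named, MSRB6, which was not tested, and genes that did not pass the test changed sign. After alignment on the 75th percentile the differences were 0.037 for AT1G53640, 0.077 for AT4G04790, 0.049 for AT4G21780, 0.035 for AT4G21820 and 0.021 for AT4G21880. With UBC21 they were 0.198 for AT1G53640, 0.134 for GSTU28, 0.239 for AT4G04790, 0.123 for AT4G04880, 0.210 for AT4G21780, 0.196 for AT4G21820, 0.061 for AT4G21870, 0.182 for AT4G21880 and 0.159 for AT4G21890. Cyclic loess gave 0.0048 for AT1G53640 and 0.034 for AT4G04790, and array weights 0.052 for AT4G04790. With 3 reference genes they were 0.018 for AT1G53640, 0.059 for AT4G04790, 0.030 for AT4G21780, 0.017 for AT4G21820 and 0.0024 for AT4G21880. Without 1 array the differences ranged from -0.16 to 0.15 for AT1G53640, -0.059 to 0.117 for AT1G53660, -0.090 to 0.097 for AT4G04790, -0.038 to 0.121 for AT4G04820, -0.092 to 0.0081 for AT4G21780, -0.092 to 0.018 for AT4G21820, -0.316 to 0.0076 for AT4G21870 and -0.055 to 0.348 for GRXC2.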
